A study of Mus musculus with 2 samples.

Results

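Barcodes rich in mitochondrial RNA were taken from single-nucleus libraries of the mouse hippocampus and selected on 1 measured value, as those with more than 5% of their UMIs in genes whose symbols start with mt-, at any number of genes. A UMI is a molecular tag that lets PCR copies of 1 molecule be counted once, and a barcode marks 1 droplet. The rule took 107 of 16174 barcodes of the male library and 639 of 20150 of the female library, together 746 of 36324. They are called mt-rich here, and barcodes with at most 1% mitochondrial UMIs are called low-mt (10619 male and 7600 female). The mice were 3 months old and carried Stra8L/- with Nestin-Cre, a recombinase driven in neural progenitors and so present in the neurons and macroglia derived from them. There was 1 library of male and 1 of female mice, both of this genotype, and the labels do not give the number of animals in either. With 1 library per sex no test was possible, so the animals, their sex and the library preparation cannot be told apart, and every interval below is a 95% interval of counting error only. No library of another genotype enters, so nothing here bears on what the loss of Stra8 does.

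The mitochondrial genome encodes subunits of the respiratory chain and of ATP synthase, and its transcripts are made and kept within mitochondria, outside the nucleus. Most mature mRNA is likewise cytoplasmic, whereas unspliced transcripts of long genes and some long noncoding RNAs are held in the nucleus. Neurons in addition carry certain mRNAs, among them those of Camk2a, Shank1, Ddn and Arc, out into dendrites, where mitochondria and ribosomes also lie.

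The male library held 103262825 UMIs and the female library 108286856, with medians of 4810 and 2798 UMIs per barcode and a median mitochondrial share of 0.614% and 1.47%. Stra8, the targeted gene, had 3 UMIs in all in the male library and 6 in the female one, with 0 and 0 of them in mt-rich barcodes; without another genotype, and with reads at the 3' end, this does not check the deletion. Clusters like dentate granule, CA1 and CA3 neurons, which mark the hippocampus, were present in both libraries. The libraries had 101 barcode sequences in common, of which 1 male and 4 female barcodes were mt-rich. The mt-rich barcodes were 0.662% of the male library (exact Clopper-Pearson interval 0.542 to 0.799%) and 3.17% of the female library (2.93 to 3.42%). They held 1272 to 8888 UMIs (median 3263) in the male and 509 to 9642 (median 1128) in the female library, and their highest mitochondrial share was 10.95% and 9.25%. The label for the molecule is nuclear RNA. The markers mt-Nd1, mt-Nd4, mt-Cytb and mt-Atp6, which the rule itself counts, each had a UMI in 100% of the male and in 96.4%, 97.8%, 93.3% and 100% of the female mt-rich barcodes. The edge of the group was not sharp. The 33 male and 302 female barcodes at over 5% to 5.5% gave 6.11% and 6.52% of their non-mitochondrial UMIs to ribosomal protein mRNAs, and the 48 male and 426 female barcodes at over 4.5% to 5% gave 5.34% and 6.37%.

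**Figure D1:**
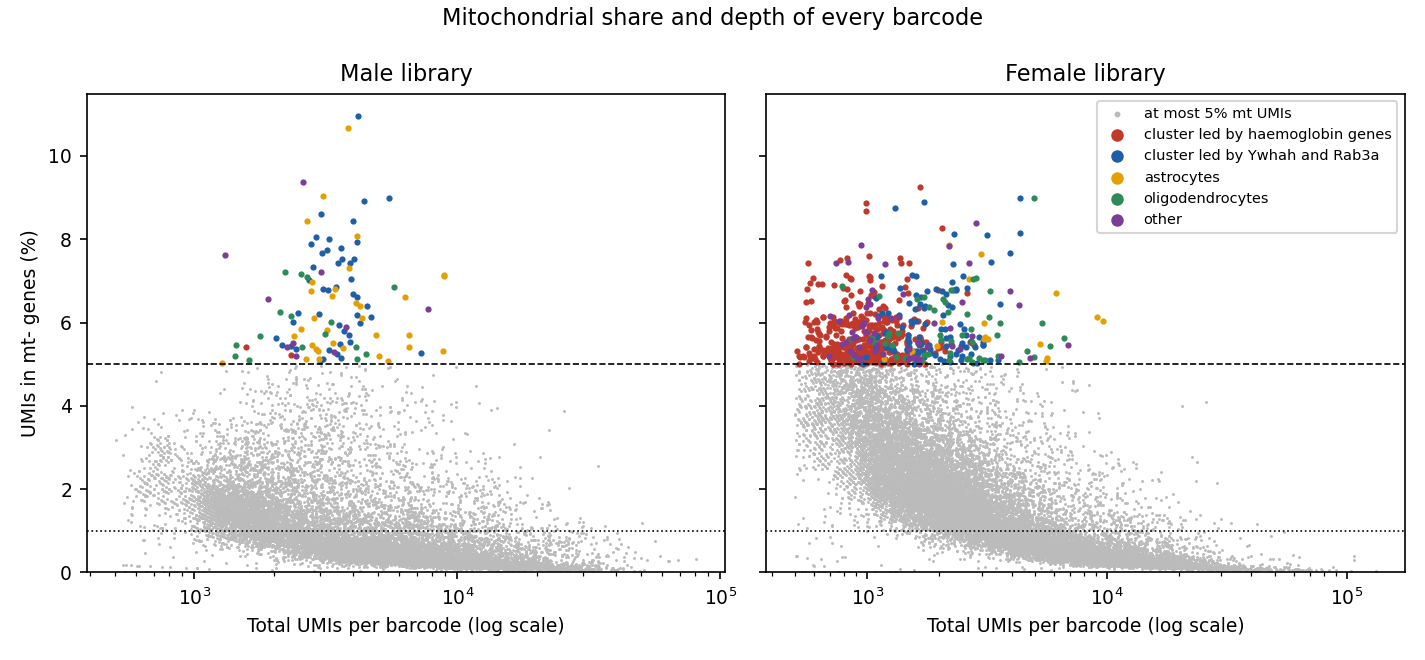
Each point is 1 barcode, with its total UMIs on a logarithmic x axis and the percentage of its UMIs in mt- genes on the y axis. The dashed line marks 5% and the dotted line 1%. Barcodes over 5% are coloured by cluster, and in the female library 400 of 639 of them are in a cluster led by haemoglobin genes, mostly near 1000 UMIs.

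Each mt-rich barcode was paired with the low-mt barcode of its own library nearest in total UMIs, within 10% and without reuse. All 107 male barcodes found a match (median 3263 UMIs in both groups). In the female library 200 of 639 did, with medians of 2149.5 UMIs in mt-rich and 2148 in low-mt barcodes; the 439 unmatched ones had a median of 1006 UMIs, below most of the low-mt barcodes, whose median was 8175. A second comparison therefore set all mt-rich barcodes against low-mt barcodes weighted to the same UMI distribution. Levels are given as counts per 1000000 non-mitochondrial UMIs (CPM), summed over a group, and ratios as log2 of mt-rich over low-mt with 5 CPM added to each side. A gene was called where the ratio was at least 1 in size, that is 2-fold, with 1 sign in both libraries. UMIs were counted at the 3' end, and no level is compared between genes.

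By cluster, the mt-rich barcodes were almost never neurons of a named class. Clusters were made without the mt- genes and named by marker genes, so each name means that the barcodes are like that type. Named neuron classes (granule, CA1, CA3, subicular, interneuron and others) held 1 of 107 male and 2 of 639 female mt-rich barcodes. They held 77 of 107 male (72.0%) and 90 of 200 female (45%) matched low-mt barcodes. In the male library 46 mt-rich barcodes (43.0%, interval 33.5 to 52.9%) were in an unnamed cluster led by Ywhah and Rab3a, 33 (30.8%) were astrocytes, 16 were oligodendrocytes and 8 were microglia or macrophages. In the female library 400 (62.6%, interval 58.7 to 66.4%) were in an unnamed cluster led by haemoglobin genes, 108 (16.9%) in the cluster led by Ywhah and Rab3a, 55 were oligodendrocytes, 24 endothelial cells, 23 microglia or macrophages and 18 astrocytes. None of the matched low-mt barcodes of either library was in either unnamed cluster, but hardly any could have been. The cluster led by Ywhah and Rab3a held 1 low-mt barcode of 341 male and 0 of 239 female ones. The haemoglobin-led cluster held 7 of 408 male and 1 of 2417 female ones. A further unnamed cluster, led by Actb, had the same 4 haemoglobin genes among its 10 leading genes. It held 18 of 200 female and 0 of 107 male matched low-mt barcodes, while 3 of its 2344 female and none of its 83 male barcodes were over 5%. The 4 haemoglobin genes stood at 751 CPM in male and 931 CPM in female barcodes of that cluster, and 1 male barcode held 322 of its 503 male haemoglobin UMIs. In the haemoglobin-led cluster these genes stood at 2614 CPM in the female mt-rich barcodes and 2642 CPM in its female barcodes at or under 5%.

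Seen from the clusters, 13.5% of the 341 male and 45.2% of the 239 female barcodes of the cluster led by Ywhah and Rab3a were over 5%. In the haemoglobin-led cluster it was 0.490% of 408 male and 16.5% of 2417 female barcodes. Among named classes the share was 2.04% in male and 0.913% in female astrocytes, 0.674% and 1.46% in oligodendrocytes, and 11.54% of the 208 female endothelial cells. It was 0 of 1886 male and 0 of 1816 female CA1 neurons, which allows shares of up to 0.159% and 0.165% (3 counts of the total). CA1 neurons were deeper, with medians of 8544 and 9168 UMIs, and the part of depth in this was not tested.

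**Figure D2:**
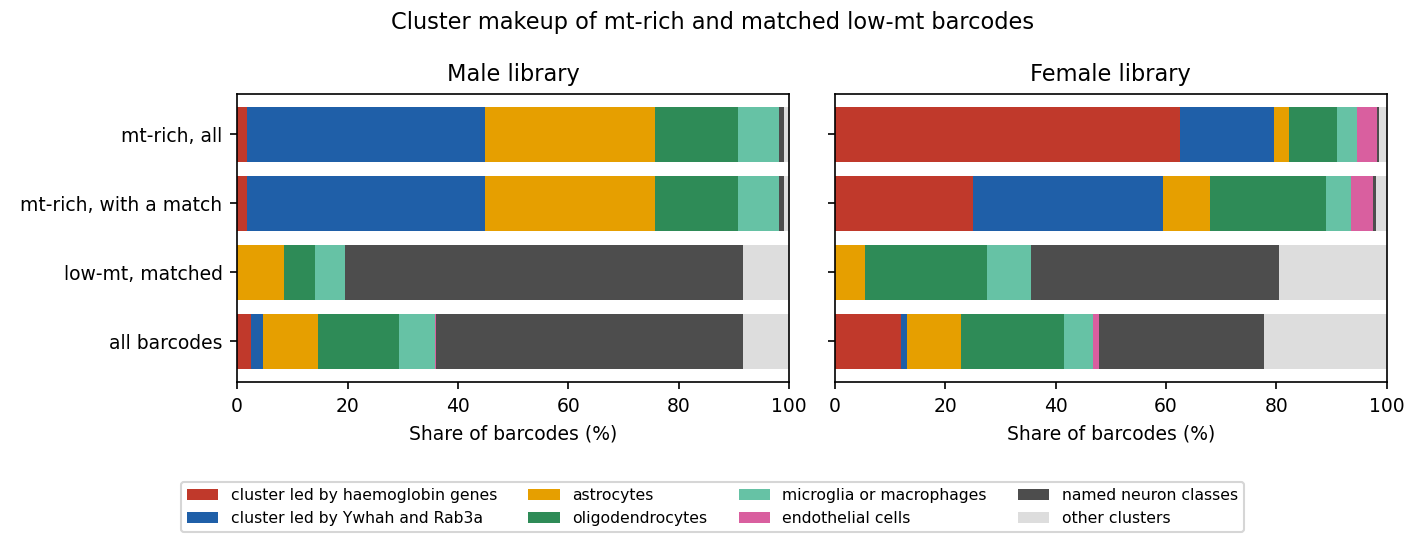
Bars give the share of barcodes (x axis, %) in each cluster or class for all mt-rich barcodes, the mt-rich barcodes with a match, their matched low-mt barcodes and the whole library. Named neuron classes fill 72.0% of the male and 45.0% of the female matched low-mt bars and are barely visible in the mt-rich bars.

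Neither of these unnamed clusters met the rule for a name. The haemoglobin-led one had as its top genes Hbb-bs, Hba-a2, Hba-a1 and Hbb-bt, but Slc4a1, which encodes the anion exchanger of the red cell membrane, and Klf1, an erythroid transcription factor, had 0 UMIs over all mt-rich barcodes of each library. The other was led by Ywhah, a 14-3-3 protein, and Rab3a, a synaptic vesicle GTPase, and its mt-rich barcodes also held transcripts of glial marker genes. In the male ones all 8 astrocyte markers had a UMI and took 0.642% of non-mitochondrial UMIs, against 0.142% in the whole male library. All 8 oligodendrocyte markers took 0.389%, against 0.102% in the whole library. Of the 8 markers of CA1 neurons 7 had a UMI, and they took 0.102%, against 0.326%. These shares were not particular to that cluster. Over all male mt-rich barcodes, that cluster included, the astrocyte, oligodendrocyte and CA1 markers took 0.756%, 0.445% and 0.0961%.

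In the matched barcodes, 107 pairs in the male library and 200 in the female one, the intervals of the mt-rich and low-mt shares of mitochondrial RNA did not overlap for 2 of 13 genes in the male library and 5 in the female one, and mt-Co3 was the one in both. Of the 13 protein-coding mt- genes, mt-Co1 (cytochrome c oxidase subunit 1) took 21.3% of mitochondrial UMIs in mt-rich and 21.3% in low-mt barcodes of the male library, and 18.6% and 20.2% in the female library. mt-Co3, another subunit of the same enzyme, was at 18.7% (interval 18.2 to 19.2%) in mt-rich and 25.3% (23.5 to 27.2%) in low-mt male barcodes. The female shares were 19.95% (19.5 to 20.4%) and 24.8% (23.4 to 26.3%). mt-Nd2, a complex I subunit, had 5.41% and 4.32% in mt-rich and low-mt male barcodes and 5.11% and 3.37% in female ones, and its intervals overlapped in the male library but not in the female one. mt-Atp6, a subunit of ATP synthase and the other one apart in the male library, took 19.6% in mt-rich and 17.1% in low-mt male barcodes, and 18.9% and 18.3% in female ones. The others apart in the female library were mt-Nd1, mt-Nd5 and mt-Cytb, each with a higher share in mt-rich barcodes. These genes share the mitochondrial total that chose the barcodes, so their shares are a description.

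Outside the mitochondrial genome, 4987 genes had at least 30 UMIs over both groups in each library. Of these 990 (19.9%) were called higher and 670 (13.4%) called lower in mt-rich barcodes, and the median ratio over all of them was 0.03 in both libraries. The ratio was above 0 in both libraries for 44.4% of genes and below 0 in both for 42%. These shares are the background for every list below. Because the minimum applies to the sum of both groups, a gene high in 1 group could pass through that group alone. Each list is therefore also given by its summed share of UMIs, which includes every member, and the counts of members describe the measured ones.

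The 12 genes named as higher are the called ones whose smaller ratio of the 2 libraries was largest. Ddn (dendrin, a postsynaptic density protein; chromosome 15, 98803777 to 98809490, mm10) had 929 UMIs in mt-rich and 97 in low-mt male barcodes, and 761 and 82 in female ones. That is 2604 and 256 CPM in the male library (log2 3.32, counting interval without added CPM 3.05 to 3.67) and 1710 and 177 CPM in the female library (log2 3.24, interval 2.95 to 3.62). Shank1 had 1160 CPM in mt-rich and 150.3 CPM in low-mt barcodes of the male library, and 872 and 112 CPM in the female library (log2 2.91 and 2.91); it encodes a scaffold of the postsynaptic density (chromosome 7, 44310253 to 44360572). Arc had 140.2 CPM in mt-rich and 13.2 CPM in low-mt barcodes of the male library, and 89.9 and 8.61 CPM in the female library (log2 3.00 and 2.80), from 50 and 5 UMIs in male and 40 and 4 UMIs in female barcodes. Arc is an immediate early gene whose mRNA goes to active synapses. Ncs1, a neuronal calcium sensor, and Dynll2, a dynein light chain, had ratios of 2.75 and 2.81 and of 2.74 and 3.08 in the male and female library. The others were Dact3, Tmcc2, Rasl10b, Cabp7, Cep170b, Lrrc10b and St6galnac6, with ratios of 2.74 to 3.87 in the male library and 2.90 to 3.11 in the female one; St6galnac6 rests on 3 low-mt UMIs in each library.

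The 12 genes named as lower, by the same rule, are 6 noncoding and 6 protein-coding ones. Kcnip4 had 524 CPM in mt-rich and 7118 CPM in low-mt barcodes of the male library, and 709.9 and 6123 CPM in the female library (log2 -3.75 and -3.1); it encodes a potassium channel interacting protein and spans 1135410 bases of chromosome 5 (48389502 to 49524907, mm10). Lingo2 had 104 CPM in mt-rich and 2085 CPM in low-mt barcodes of the male library, and 124 and 1066 CPM in the female library (log2 -4.27 and -3.06), and Nrg1 (neuregulin 1) had ratios of -3.57 and -3.03. Cntn5, which encodes a contactin adhesion molecule, had ratios of -3.61 and -3.36, and Itga8, an integrin subunit, -3.57 and -3.26. Of the other 7 names, 6 are noncoding RNAs (Nrg3os, 4921534H16Rik, Gm12296, 4930509J09Rik, Macrod2os1 and Gm13269) and the last is Fndc9, with 2 UMIs in mt-rich and 76 in low-mt male barcodes (log2 counting interval -8.23 to -3.26) and 2 and 65 in female ones (-8.04 to -3.05). Among the noncoding ones, 4921534H16Rik had 0 UMIs in mt-rich and 57 in low-mt male barcodes, and 1 and 37 in female ones. Nrg3os, Macrod2os1, Gm13269 and 4921534H16Rik are annotated as antisense, and whether counting used strand is not given in the sources used here.

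**Figure D3:**
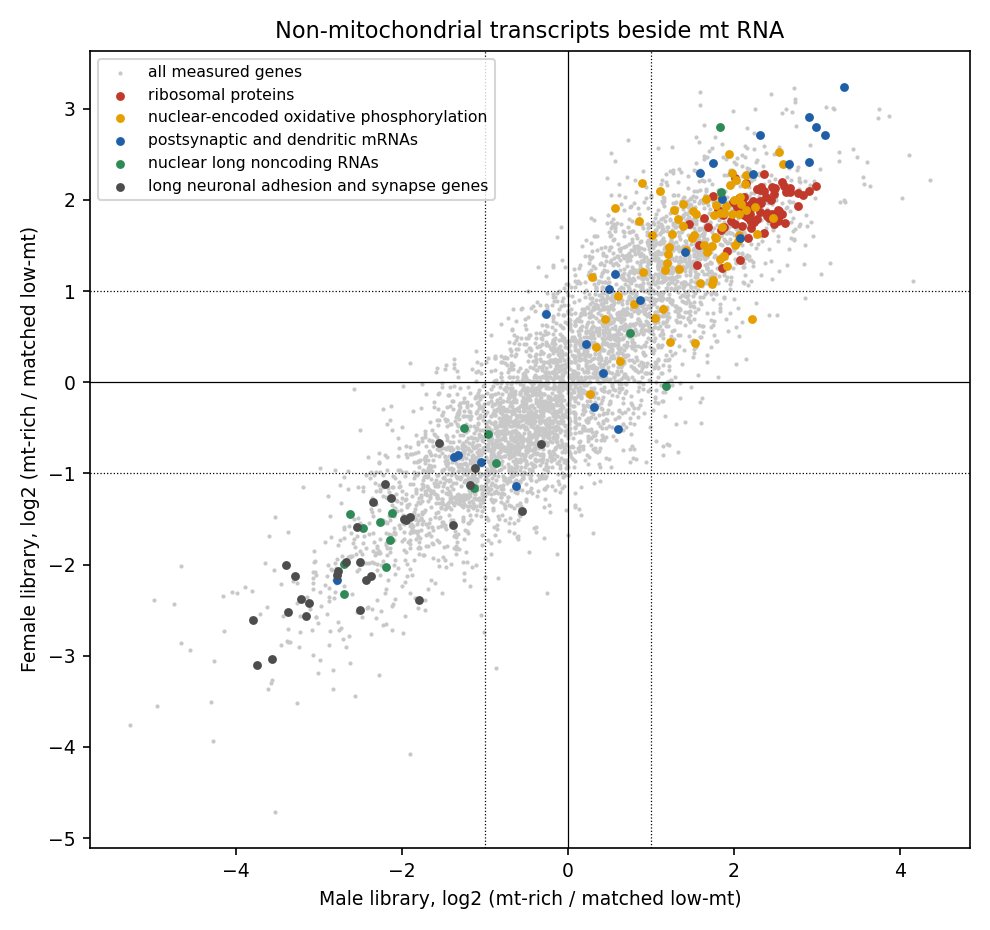
Each point is a measured gene, with the log2 ratio of mt-rich over matched low-mt barcodes in the male library on the x axis and in the female library on the y axis. Dotted lines mark a ratio of 1 in size. Ribosomal protein and oxidative phosphorylation genes sit in the upper right, long neuronal genes in the lower left, and postsynaptic mRNAs reach both ends.

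Cytoplasmic housekeeping mRNAs made up several times more of the mt-rich barcodes. The mRNAs of the 79 cytosolic ribosomal proteins were 7.08% of non-mitochondrial UMIs in mt-rich and 1.39% in low-mt barcodes of the male library, and 6.51% and 1.70% in the female library. Per barcode, that share ran from 3.23 to 13.3% (median 6.95%) in male mt-rich and from 0.519 to 4.05% (median 1.45%) in male low-mt barcodes. In the female library it ran from 2.42 to 14.2% (median 6.95%) over all 639 mt-rich and from 0 to 4.48% (median 1.83%) over the matched low-mt barcodes. The groups overlapped only at the ends of their ranges in both libraries. All 78 measured members were called higher (median ratio 2.24 in the male library and 1.89 in the female one), with ratios of 1.46 to 2.99 in the male library and 1.26 to 2.28 in the female one. Rpsa had 1601 CPM in mt-rich and 198 CPM in low-mt barcodes of the male library, and 1458 and 323 CPM in the female library (log2 2.99 and 2.16). Many ribosomal protein genes have processed pseudogenes with which they can share reads, so single members are uncertain.

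Translation factors followed, at 0.928% of non-mitochondrial UMIs in mt-rich and 0.214% in low-mt barcodes of the male library, and 0.831% and 0.232% in the female library, and 14 of 18 members were called higher. Eef1a1 had 2312 CPM in mt-rich and 403 CPM in low-mt barcodes of the male library, and 1912 and 476 CPM in the female library (log2 2.50 and 2.00); it delivers aminoacyl-tRNA to the ribosome. Tpt1, the translationally controlled tumour protein, had ratios of 2.90 and 2.08. Cytoskeletal and housekeeping mRNAs took 4.10% of non-mitochondrial UMIs in mt-rich and 0.906% in low-mt barcodes of the male library, and 4.28% and 0.938% in the female library. Of the 33 members 32 were called higher (median ratio 1.66 in the male library and 1.96 in the female one). Fth1 had 15571 CPM in mt-rich and 1613 CPM in low-mt barcodes of the male library, and 16530 and 2874 CPM in the female library (log2 3.27 and 2.52); it encodes the heavy chain of ferritin, which stores iron. Glycolysis and lactate genes took 0.449% of non-mitochondrial UMIs in mt-rich and 0.158% in low-mt barcodes of the male library, and 0.357% and 0.113% in the female library, with 13 of 17 measured members called higher, among them Gapdh at 1.78 and 1.98 and Aldoc, the brain and astrocyte aldolase, at 2.02 and 1.5.

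Nuclear genes for the respiratory chain, whose proteins join the mitochondrially encoded subunits, were also higher. The 75 genes of oxidative phosphorylation took 2.90% of non-mitochondrial UMIs in mt-rich and 0.780% in low-mt barcodes of the male library, and 2.73% and 0.760% in the female library. Of 72 measured members 56 were called higher and 71 had ratios above 0 in both libraries (median ratio 1.71 in the male library and 1.62 in the female one). Cox8a had 3843 CPM in mt-rich and 630.1 CPM in low-mt barcodes of the male library, and 3356 and 635 CPM in the female library (log2 2.60 and 2.39), and Cox6c had ratios of 2.54 and 2.53; both are subunits of cytochrome c oxidase. The lowest members were Ndufs4 and Ndufs1 of complex I, at 0.34 and 0.39 and at 0.26 and -0.13. Genes of mitochondrial import, metabolite carriers and fission or fusion were less uniform, with 9 of 19 measured members called higher and 1, the import motor subunit Timm44, called lower. Pink1, a kinase that marks damaged mitochondria, had ratios of 2.63 and 1.92, Slc25a4 (an ADP/ATP carrier) 1.67 and 2.00, and Dnm1l, the fission GTPase, -0.42 and -0.35. In sum the list was 0.418% of non-mitochondrial UMIs in mt-rich and 0.193% in low-mt barcodes of the male library, and 0.383% and 0.173% in the female library.

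Transcripts of genes that overlap ribosomal RNA repeats were higher as a sum. The 6 listed genes present took 1.67% of non-mitochondrial UMIs in mt-rich and 0.489% in low-mt barcodes of the male library, and 1.66% and 0.527% in the female library. Gm42418 had 11871 CPM in mt-rich and 3090 CPM in low-mt barcodes of the male library, and 12356 and 3531 CPM in the female library (log2 1.94 and 1.81), and Lars2 and Cmss1 had ratios of 1.97 and 1.64 and of 1.66 and 1.81. In all 4 of the 6 were called higher, while Gm26917 and Filip1l had ratios of -1.25 and -0.51 and of -0.51 and -1.11. Reads at these genes can come from ribosomal RNA, so they are not read as expression of the genes.

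Synaptic mRNAs differed by gene. The 26 postsynaptic and dendritic genes together took 2.31% of non-mitochondrial UMIs in mt-rich and 1.10% in low-mt barcodes of the male library, and 1.85% and 0.825% in the female library, and 13 were called higher and 1 lower (median ratio 1.14 in the male library and 1.31 in the female one). Ddn, Shank1 and Arc are given above. Camk2a had 6427 CPM in mt-rich and 1368 CPM in low-mt barcodes of the male library, and 4792 and 979.5 CPM in the female library (log2 2.23 and 2.28); it encodes the alpha subunit of a calcium-dependent kinase of synapses, and is named, after its values were seen, for the known transport of its mRNA into dendrites. Ppp1r9b had 922 CPM in mt-rich and 103 CPM in low-mt barcodes of the male library, and 523 and 75.3 CPM in the female library (log2 3.1 and 2.72); it encodes spinophilin, a protein of dendritic spines. At the low end Lrrc7 (densin), which encodes another postsynaptic density protein, had ratios of -2.79 and -2.16 and Grin1, the obligatory NMDA receptor subunit, -1.37 and -0.82. In the male library 49.5% of mt-rich and 9.35% of matched low-mt barcodes had a Ddn UMI after each was thinned to 400 UMIs, beside 8.40% of 500 low-mt granule neurons. In the female library the shares were 34.4% of all 639 mt-rich barcodes, 7% of the 200 matched low-mt ones and 5.80% of 500 low-mt granule neurons. Unthinned they were 97.2%, 57% and 66.4% in the male library and 66.4%, 32.5% and 61.4% in the female library, at median depths of 3263, 3263 and 4974 and of 1128, 2148 and 6092 UMIs.

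Presynaptic and axonal genes took 1.26% of non-mitochondrial UMIs in mt-rich and 0.786% in low-mt barcodes of the male library, and 1.2% and 0.589% in the female library. Of 28 measured members 15 were called higher and none lower at 2-fold. Nefl had 381 CPM in mt-rich and 63.3 CPM in low-mt barcodes of the male library, and 350.5 and 71.0 CPM in the female library (log2 2.50 and 2.22); it encodes the neurofilament light chain of axons. Cplx2 and Cplx1, complexins of vesicle release, had ratios of 2.04 and 2.46 and of 1.55 and 2.32, and Sncb (beta-synuclein) 1.64 and 2.21. Syt1, the calcium sensor of release, was the lowest member, with -1.02 and -0.73.

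Immediate early genes, which respond to activity or to handling of tissue, were sparse, and 17 of 24 were under the minimum of UMIs. As a sum they took 0.137% of non-mitochondrial UMIs in mt-rich and 0.0374% in low-mt barcodes of the male library, and 0.113% and 0.0314% in the female library. All 7 measured members were called higher. The minimum was on the sum of both groups, so sparse members could pass through the mt-rich barcodes alone, and that count is a description. Egr1 had 78.5 CPM in mt-rich and 7.91 CPM in low-mt barcodes of the male library, and 80.9 and 23.7 CPM in the female library (log2 2.69 and 1.58). Jund and Nr4a3 had ratios of 2.03 and 2.39 and of 1.86 and 2.61. Heat shock and folding genes took 0.427% of non-mitochondrial UMIs in mt-rich and 0.158% in low-mt barcodes of the male library, and 0.478% and 0.137% in the female library, with 10 of 13 measured members called higher. Hsp90ab1 had 1172 CPM in mt-rich and 239.9 CPM in low-mt barcodes of the male library, and 1305 and 241 CPM in the female library (log2 2.26 and 2.41); it is a cytosolic chaperone. The stress-induced Hspa1a, Hspa1b and Dnajb1 were not measured at this depth.

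Glial mRNAs were higher too, in a comparison whose mt-rich barcodes also held more astrocytes in both libraries and more oligodendrocytes in the male one. The 16 myelin genes took 1.04% of non-mitochondrial UMIs in mt-rich and 0.121% in low-mt barcodes of the male library, and 1.18% and 0.350% in the female library, and 6 of 12 measured members were called higher. Mbp had 5275 CPM in mt-rich and 301 CPM in low-mt barcodes of the male library, and 5362 and 947 CPM in the female library (log2 4.11 and 2.49); it encodes myelin basic protein, and its mRNA is transported into the myelin sheath. Mobp had 2755 CPM in mt-rich and 129 CPM in low-mt barcodes of the male library, and 2918 and 622 CPM in the female library (log2 4.36 and 2.22). Mog and Mag, membrane proteins of myelin, had smaller ratios of 1.57 and 0.08 and of 0.91 and 0.18. The 18 astrocyte genes took 2.28% of non-mitochondrial UMIs in mt-rich and 0.556% in low-mt barcodes of the male library, and 1.74% and 0.608% in the female library, and 17 were called higher. Slc1a2 (the glutamate transporter GLT-1) had ratios of 2.29 and 1.80 and Apoe, the lipid carrier, 2.33 and 1.61. The 8 astrocyte markers, all with a UMI, took 0.756% in male and 0.437% in female mt-rich barcodes, against 0.142% and 0.177% in the whole libraries. The pairs of 1 cluster below take that makeup away from the comparison.

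Of 17 blood cell genes 5 had enough UMIs, among them all 4 haemoglobin genes, and the anion exchanger Slc4a1 was at 0 in the matched barcodes of both libraries. The list took 0.161% of non-mitochondrial UMIs in mt-rich and 0.0823% in low-mt barcodes of the male library, and 0.195% and 0.0876% in the female library, and none of the 5 was called, against the 19.9% of all genes. Hbb-bs had 636 CPM in mt-rich and 272 CPM in low-mt barcodes of the male library, and 766 and 389.7 CPM in the female library (log2 1.21 and 0.97). Hba-a1 had ratios of 1.41 and 0.95, Hba-a2 0.95 and 1.18 and Hbb-bt 0.37 and 1.11; these pairs of near-identical globin genes can share reads. The male values rest largely on 1 barcode. Without the mt-rich barcode with most haemoglobin in each library, a setting chosen after seeing the data, Hbb-bs had 414 CPM in mt-rich and 265 CPM in low-mt male barcodes (log2 0.63), and Hbb-bt had a male ratio of -0.01. The female ratio of Hbb-bs was then 0.97. With all mt-rich barcodes and weighted low-mt barcodes, 3 of the 5 were called, where 20% of all genes were, and Hbb-bs had ratios of 1.08 and 1.51.

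Counted per barcode, the 4 haemoglobin genes had the same median in both groups. It was 2 haemoglobin UMIs in mt-rich and 2 in all low-mt male barcodes, and 2 and 2 in female ones, while the total UMIs had medians of 3263 and 6523 in the male library and 1128 and 8175 in the female one. As a level it was 1205 CPM in mt-rich and 269 CPM in low-mt male barcodes, and 2045 and 238 CPM in female ones. One male barcode of the haemoglobin-led cluster held 152 of the 430 male UMIs, 10.3% of its non-mitochondrial UMIs. Without that cluster the male level was 785 CPM and the female level 1593 CPM. After thinning to 400 UMIs, 15.9% of mt-rich and 13.1% of matched low-mt male barcodes had an Hbb-bs UMI, with 8.60% in low-mt granule neurons. The female shares were 39.3% over all 639 mt-rich barcodes, 12% over the 200 matched low-mt ones and 8.80% in granule neurons. The counting intervals of the male shares of mt-rich and matched low-mt barcodes overlap, and those of the female shares do not. Barcodes are not replicates, so this is a description, and the difference between the libraries was not tested. The male and female contrasts are also of unlike sets, since all 107 male mt-rich barcodes had a match. Of the 639 female ones 400 were in the haemoglobin-led cluster, against 50 of the 200 with a match. Unthinned the shares were 72.0%, 57.9% and 62.6% in the male library and 73.9%, 50% and 68.4% in the female one, at the median depths given for Ddn.

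The 10 listed choroid plexus genes took 0.192% of non-mitochondrial UMIs in mt-rich and 0.125% in low-mt barcodes of the male library, and 0.0645% and 0.0435% in the female library, and 2 were measured. Ttr (transthyretin), its most abundant secreted product, had 1637 CPM in mt-rich and 1065 CPM in low-mt male barcodes, and 319 and 73.2 CPM in female ones. Per barcode the male direction differed: thinned to 400 UMIs, 42.1% of mt-rich and 48.6% of matched low-mt male barcodes had a Ttr UMI. The female shares were 13.6% of all 639 mt-rich and 4% of the 200 matched low-mt barcodes. The cluster like choroid plexus epithelial cells held 31 male and 0 female barcodes. Enpp2 (autotaxin) had ratios of 0.66 and -0.23. The other 8 listed genes, Otx2 and Kcne2 among them, were not measured.

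Nuclear transcripts were lower, in a comparison whose low-mt barcodes were more often neurons of a named class (72.0% male and 45% female). The pairs of 1 cluster below give these lists with that makeup taken away. The 19 nuclear long noncoding RNAs took 2.77% of non-mitochondrial UMIs in mt-rich and 6.25% in low-mt barcodes of the male library, and 3.22% and 7.29% in the female library. Malat1 had 24888 CPM in mt-rich and 54450 CPM in low-mt barcodes of the male library, and 27718 and 62063 CPM in the female library (log2 -1.13 and -1.16); it is retained in nuclear speckles. Meg3 had 491 CPM in mt-rich and 3211 CPM in low-mt barcodes of the male library, and 607 and 3046 CPM in the female library (log2 -2.70 and -2.32), and Snhg11 had ratios of -2.19 and -2.03 and Kcnq1ot1, an imprinting transcript, -2.63 and -1.45. Of 16 measured members 9 were called lower and 2 called higher, Gas5 at 1.84 and 2.09 and Peg13 at 1.83 and 2.80. Gas5 hosts small nucleolar RNAs and its spliced transcript is associated with ribosomes. Neat1, the RNA of paraspeckles, had 1.18 and -0.04.

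The 30 long neuronal adhesion and synapse genes took 1.57% of non-mitochondrial UMIs in mt-rich and 7.07% in low-mt barcodes of the male library, and 2.13% and 7.03% in the female library. All 30 had ratios below 0 in both libraries and 26 were called lower, against 13.4% of all genes, with a median ratio of -2.46 in the male library and -1.99 in the female one. By the mean ratio of the 2 libraries Kcnip4 and Nrg1 were lowest. Genes of the spliceosome and of nuclear RNA binding, whose proteins act in the nucleus, took 0.451% of non-mitochondrial UMIs in mt-rich and 0.718% in low-mt barcodes of the male library, and 0.477% and 0.700% in the female library, with 5 of 24 members called lower and none higher (median ratio -0.97 in the male library and -0.67 in the female one). Clk1, a kinase of splicing factors whose transcript keeps introns in the nucleus, had -1.74 and -1.15, and Hnrnpk 0.54 and 0.41.

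Median ratios were lower in each longer class of genes. Spans were read from the GENCODE vM21 annotation of mm10. Genes under 10 kb took 31.0% of non-mitochondrial UMIs in mt-rich and 15.6% in low-mt male barcodes, and 29.9% and 16.1% in female ones. Genes over 300 kb took 9.93% and 28.0% in the male library and 11.48% and 27.6% in the female one. Of 721 measured genes under 10 kb, 63.8% were called higher, and of 466 over 300 kb, 55.2% were called lower. The median ratio was 1.47 and 1.55 under 10 kb, -0.11 and -0.05 at 30 to 100 kb, and -1.53 and -1.22 over 300 kb in the male and female library. Long noncoding genes as annotated took 6.40% of non-mitochondrial UMIs in mt-rich and 11.1% in low-mt male barcodes, and 6.94% and 12.3% in female ones.

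**Figure D4:**
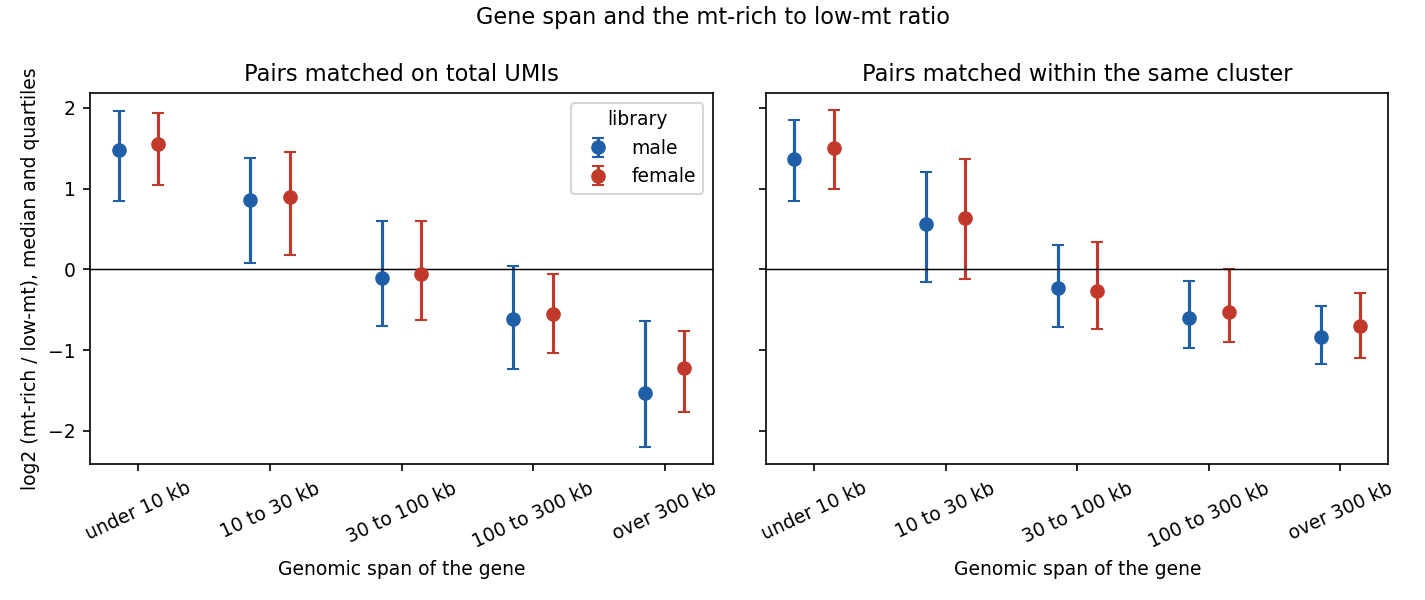
Points give the median log2 ratio of mt-rich over low-mt barcodes and bars the quartiles over measured genes, by genomic span (x axis) and library (colour). The left panel uses pairs matched on total UMIs and the right panel pairs from the same cluster. Medians are lower at each longer class in both panels and both libraries.

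Because the mt-rich barcodes were mostly glia or in unnamed clusters and the low-mt ones more often neurons, the pairs were also drawn within the same cluster. That left 59 male and 42 female pairs, of which 33 and 15 were astrocytes, 16 and 16 oligodendrocytes, and 7 and 7 microglia or macrophages. Of the clusters led by Ywhah and Rab3a and by haemoglobin they held 1 and 1 male pair and 0 and 1 female pair. Among 1739 measured genes 267 (15.4%) were called higher and 129 (7.42%) lower, and the median over all genes was -0.27 and -0.22. The ratio was above 0 in both libraries for 33.6% of them and below 0 in both for 51.5%. Ribosomal protein mRNAs were higher here too, with 72 of 76 measured members called, as were those of oxidative phosphorylation, with 28 of 44.

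Within clusters the postsynaptic list had 10 of 17 measured members called higher and none lower, with a median ratio of 1.36 and 2.24, in barcodes most of which were glia. Ddn had ratios of 2.29 and 2.94 and Shank1 2.74 and 3.08. Of the 12 genes named above as higher, 9 had enough UMIs and all 9 were called. Mt-rich barcodes that chose these genes were used again in these pairs, so that count is a description and not a separate check. The presynaptic list had 5 of 19 called. The astrocyte list, with 17 of 18 called over all pairs, had 2 of 18 here: Slc1a2 was at -0.27 and -0.10 while Apoe was at 1.12 and 1.08. The myelin list had 3 of 11 called, Mbp at 2.87 and 2.54. None of the 5 blood genes was called, with Hbb-bs at 1.05 and 0.87. Without the barcode richest in haemoglobin of each library it was at 0.02 in the male library and 0.87 in the female one. Malat1 was at -0.66 and -0.67, while Meg3 was at -0.48 and 0.01, so not lower in the female pairs. Of the 30 long neuronal genes 25 were measured and 23 of them had ratios below 0 in both libraries, but 4 were called lower. Of the 12 genes named as lower, Kcnip4 alone had enough UMIs and was not called, at -0.69 and -0.83. Over the 1706 genes measured in both settings, 41 of 242 called lower over all pairs were called lower here too. For genes called higher it was 253 of 442.

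Across the whole range of mitochondrial shares several lists changed stepwise. Barcodes of 1000 to 4000 UMIs were binned at 0 to 0.5, 0.5 to 1, 1 to 2, 2 to 3, 3 to 5 and over 5% mitochondrial UMIs. Ribosomal protein mRNAs took 1.27, 1.78, 2.80, 3.87, 4.93 and 7.57% of non-mitochondrial UMIs along these bins in the male library and 1.08, 1.72, 2.70, 3.86, 5.36 and 6.73% in the female one. Long neuronal genes took 7.47, 6.09, 3.83, 2.93, 2.27 and 1.5% in the male library and 8.63, 7.17, 5.59, 4.54, 3.43 and 1.94% in the female one. The postsynaptic list was lowest at 1 to 2% and higher beyond it, with 1.06, 0.912, 0.832, 1.32, 1.81 and 2.37% in the male library and 0.998, 0.864, 0.792, 0.914, 1.25 and 1.74% in the female one. The blood list took 0.0820, 0.101, 0.146, 0.167, 0.179 and 0.208% in the male library and 0.0704, 0.0895, 0.129, 0.172, 0.224 and 0.243% in the female one. Without the clusters led by haemoglobin and by Ywhah and Rab3a it took 0.0820, 0.101, 0.144, 0.146, 0.161 and 0.122% in the male library and 0.0704, 0.0894, 0.128, 0.167, 0.191 and 0.175% in the female one. Bins held 76 to 2833 male and 60 to 4380 female barcodes.

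Inside the classes with at least 20 barcodes over 5% the postsynaptic list was also higher at higher mitochondrial shares. In male astrocytes it took 0.751, 0.703, 0.915, 1.38, 1.63 and 1.80% over the 6 bins, and in female oligodendrocytes 0.361, 0.489, 0.692, 1.09 and 1.52% from 0.5 to 1% upwards. The blood list changed less in those classes. It took 0.0900, 0.0895, 0.103, 0.107, 0.114 and 0.110% in male astrocytes and 0.107, 0.149, 0.182, 0.187 and 0.177% in female oligodendrocytes, so lower in the last bin than in the one before it. The last bin held 20 male astrocytes and 45 female oligodendrocytes. Without the clusters led by haemoglobin and by Ywhah and Rab3a the postsynaptic list took 1.06, 0.912, 0.814, 1.21, 1.62 and 1.78% in the male library and 0.998, 0.864, 0.784, 0.879, 1.14 and 1.60% in the female one.

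**Figure D5:**
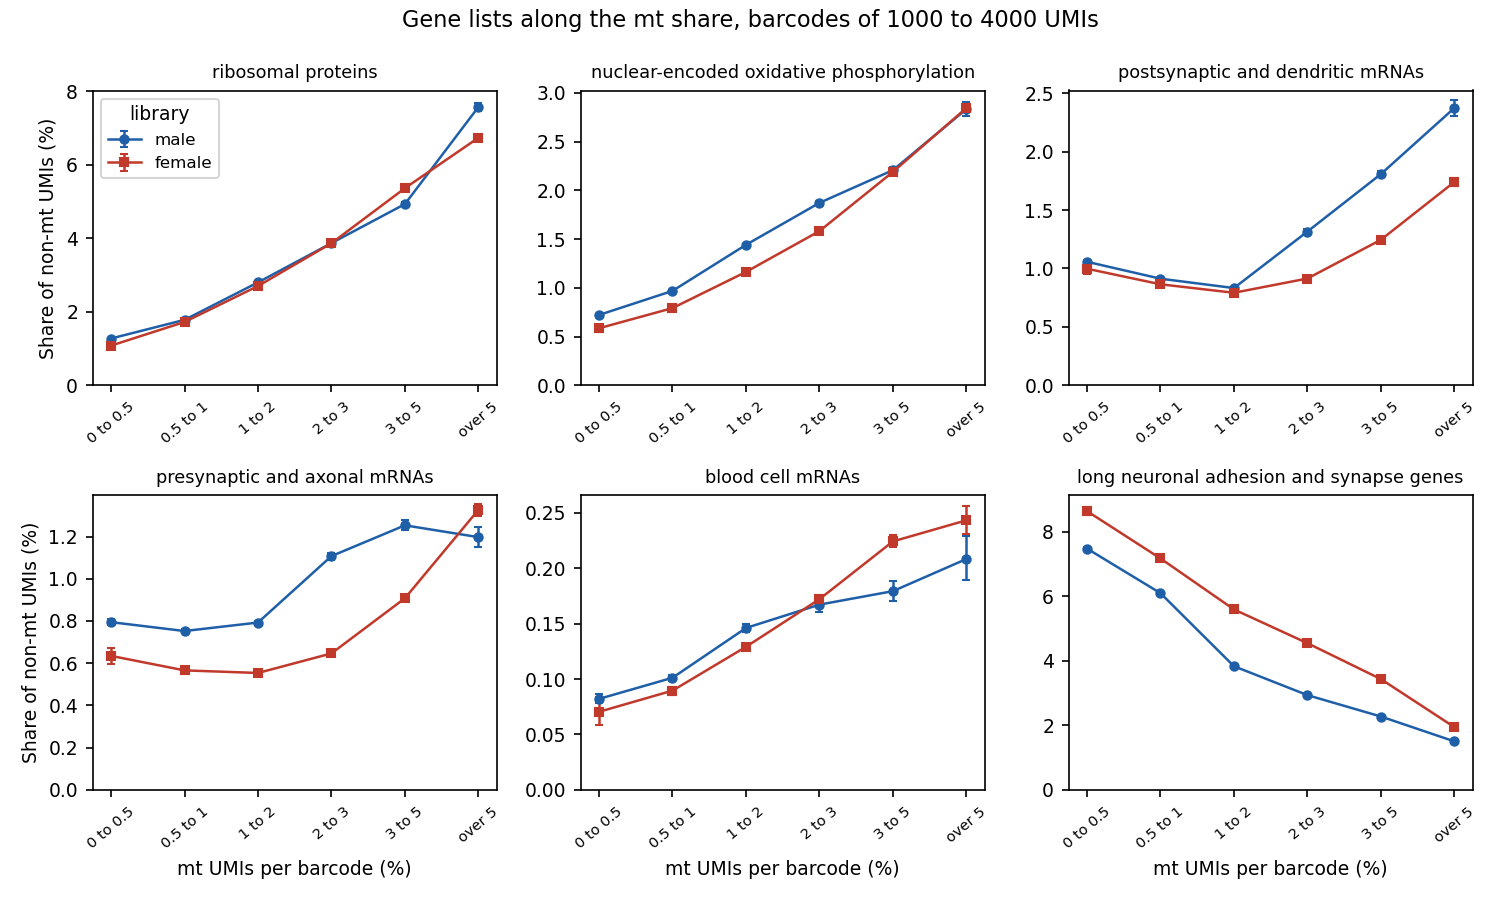
Each panel gives the share of non-mitochondrial UMIs (y axis, %) in 1 gene list, by bins of the mitochondrial share per barcode (x axis, %), for barcodes of 1000 to 4000 UMIs of the male (blue circles) and female (red squares) library. Bars are 95% counting intervals. Ribosomal and oxidative phosphorylation mRNAs are higher in every next bin, and long neuronal genes are lower in every next bin.

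The mt-rich barcodes differed among themselves by cluster. In the cluster led by Ywhah and Rab3a, Malat1 took 1.10% of non-mitochondrial UMIs in male and 1.48% in female mt-rich barcodes, against 3.95% and 4.55% in mt-rich astrocytes. The presynaptic list took 1.64% and 1.78% in that cluster and 0.966% and 0.712% in mt-rich astrocytes, and the postsynaptic list 2.89% and 1.93% against 1.78% and 2.06%. The clusters were made from these transcripts, so the differences are a description. Mt-rich oligodendrocytes gave 1.86% of their non-mitochondrial UMIs to the postsynaptic list in the male library and 1.55% in the female one, against 0.567% and 0.348% in low-mt oligodendrocytes. The 24 female mt-rich endothelial cells gave 8.27% to ribosomal protein mRNAs and 0.297% to haemoglobin, and the 400 of the haemoglobin-led cluster 7.09% and 0.261%.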

How the data were processed

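Nuclei from the hippocampus of male and female mice were profiled by droplet single-nucleus RNA sequencing (10x 3' chemistry, version 3.1), with 1 library each. Each deposited table holds unnormalised UMI counts of genes by barcodes, which the authors made with Cell Ranger (version 7.0.1 per the file headers) after bcl2fastq 2.20.0.422 on mm10, per the submitters' processing notes. The rule by which barcodes were kept, the use of introns and of strand, and any removal of doublets or free RNA were not stated in the labels or headers, and each could change the share of mitochondrial and intronic UMIs.

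All 36324 deposited barcodes were used, with no filter on genes. Mt-rich barcodes were paired 1 to 1 with low-mt barcodes on total UMIs within 10%. Counts were summed per group and library, divided by the non-mitochondrial total and multiplied to CPM. Log2 ratios had 5 CPM added, and genes needed 30 UMIs over both groups in each library. Intervals are exact (Clopper-Pearson, Poisson or conditional binomial, 95%) and cover counting error only. Cells are not replicates and each group was 1 library, so no p-value was computed. The median depth per barcode was 4810 UMIs in male and 2798 UMIs in female nuclei.

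Clusters came from both libraries together without mt- genes, Stra8 and sex-linked genes (3000 variable genes, 40 components, 15 neighbours, Leiden resolution 1), which gave 32 clusters, 6 of them unnamed. A name needed 3 of 8 markers at 2-fold and 20 CPM, and globin RNA alone gave none. It also needed more markers of that type than of any other among the 20 leading genes, and no fewer among the first 10. Clusters of low depth also needed a marker of the type among their 10 leading genes. Doublets were not removed; 0 mt-rich barcodes were in the top 8% of doublet scores of either library. Gene spans came from GENCODE vM21, which matched 4986 of 4987 measured genes. The genes named are, in each direction, the 12 called genes whose smaller ratio of the 2 libraries was largest, list members where 20 or fewer were measured, and the 4 highest and 2 lowest of longer lists by mean ratio. Some genes that this takes are not reported here. The members, the 18 lists and the rules were chosen with earlier results of these data known. The gene comparison was tested on simulated data. Python 3.11.15, numpy 2.4.6, scipy 1.17.1, pandas 2.3.3, scanpy 1.11.5, leidenalg 0.10.2, igraph 0.11.9 and matplotlib 3.10.9 were used. Alternatives changed the thresholds, the matching, the filter, the CPM added, the clusters and the barcodes left in.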

Additional observations from a re-analysis of the deposited data

Results flagged for a closer look

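Oligodendrocytes and microglia were set apart because their share moved in opposite directions in the male and the female library. Oligodendrocytes were 15% of matched mt-rich and 5.61% of matched low-mt barcodes in the male library, and 21.0% and 22.0% in the female library. The difference was 9.35 percentage points for male and -1 for female nuclei, which are 10.35 points apart. Microglia or macrophages were 7.48% of matched mt-rich and 5.61% of matched low-mt barcodes in the male library, and 4.5% and 8% in the female library. Those differences were 1.87 and -3.5 points, which are 5.37 points apart. With 1 library of each sex neither difference between the libraries was tested.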

How the results depend on the processing

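With pairs of the same cluster called log2 ratios changed sign for Slc1a2, to -0.27 for male and -0.10 for female pairs, and for Meg3, to 0.0080 for female pairs, beside -0.48 for male ones; the cause was not tested. No other called gene ratio reported here changed sign among genes with enough UMIs in the setting. Genes under the minimum were not counted. Among the 12 named as lower, Nrg1 was then at 0.54 (17 and 12 UMIs) and Gm12296 at 0.32 (5 and 4 UMIs) in male pairs of the same cluster. Nrg3os was at 0.06 (3 and 3 UMIs) in female ones. Under the size of a call, the male ratio of Hbb-bt was -0.01 without the barcode with most haemoglobin, and the median over all genes was -0.27 and -0.22 with pairs of the same cluster. Of the recomputed counts, shares and list values 315 stayed near the value reported and 44 moved. No paired analysis was possible because each sex had 1 library and no test was made. Over 3%, 4.14% of male and 18% of female barcodes would be taken, and over 10%, 0.0124% and 0%; the 2 male barcodes over 10% are too few for the gene comparison, which was not run there, and 50% of them were astrocytes and 0% oligodendrocytes. With pairs of the same cluster 267 genes were called higher and 129 lower, with no filter 1510 and 1391, with at least 100 UMIs 424 and 316, and without the mt-rich barcodes of the cluster led by Ywhah and Rab3a 588 and 408. In these settings another number of genes was tested, 1739, 15596, 1438 and 3136. The male library alone gave 1043 lower. Members higher in both libraries with pairs of the same cluster were 9 of 10 measured for translation factors, 42 of 44 for oxidative phosphorylation, 7 of 7 for glycolysis, 1 of 1 for immediate early genes, 6 of 7 for heat shock and 6 of 6 for mitochondrial import, but 5 of 11 for myelin and 11 of 18 for astrocytes, beside 33.6% of all genes. Of the nuclear noncoding RNAs 5 of 8 were below 0 in both libraries, beside 51.5% of all genes, and 0 were called lower. With at least 100 UMIs they were all measured members, 9, 41, 10 and 4 for translation, oxidative phosphorylation, glycolysis and myelin, 3 for blood, 1 for immediate early genes, 7 for heat shock and 6 for mitochondrial import. Immediate early genes gave 19 of 23 with no filter, 1 of 1 with low-mt barcodes at most at 0.5% and 1 of 1 without the Ywhah and Rab3a cluster, and myelin 7 of 7 without that cluster. Choroid plexus genes gave 4 of 7 with no filter and 2 of 2 with low-mt barcodes at most at 0.5%, without that cluster or in the male library alone. With pairs of the same cluster the log2 ratio of the summed share of genes under 10 kb was 0.76 for male and 0.75 for female pairs, and of genes over 300 kb -0.85 and -0.70. Of the values of single named genes 1980 stayed near and 217 moved. Without the barcode sequences common to both libraries 984 genes were higher and 671 lower; without the mt-rich barcode with most haemoglobin of each library 986 were higher and 671 lower, with 4 blood genes above 0 in both. Leaving out these barcodes, or either unnamed cluster, was chosen after seeing the data. At this depth genes under 30 UMIs over both groups were not measured, and 439 female mt-rich barcodes found no match.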
